A study of Mus musculus with 6 samples.

Results

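The genes described here make, break down and sense prostaglandins and leukotrienes. They are the rows of the gene table whose symbol equals one of 10 names: the cyclooxygenase genes Ptgs1 and Ptgs2, the terminal synthase genes Ptges, Ptgis, Ptgds and Tbxas1, the breakdown enzyme gene Hpgd, the prostaglandin E receptor genes Ptger2 and Ptger4, and the 5-lipoxygenase gene Alox5. All 10 were found, among 57180 rows. Messenger RNA was sequenced from 6 lung samples of mice exposed to cigarette smoke, in a study titled as modelling chronic obstructive pulmonary disease. Of the samples, 3 were labelled FTO_OE (overexpressing FTO, an enzyme that removes N6-methyladenosine marks from RNA) and 3 were labelled WT. The smoke exposure is shared by both genotypes, and lungs without smoke were not analysed here, so each value below concerns the genotype and none the smoke. The labels do not say how FTO was overexpressed or in which cells, nor give strain, sex, age or length of exposure, and they do not say whether each library came from a separate animal. The p-values therefore measure the spread between these samples, which may be technical.

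Prostaglandins and leukotrienes are short-lived lipid signals made from arachidonic acid that phospholipases release from membranes. The cyclooxygenases COX-1, which most tissues make constantly, and COX-2, which stimulated cells switch on, turn arachidonic acid into an unstable intermediate, and a terminal synthase sets which prostanoid is made from it. 5-lipoxygenase starts the separate leukotriene branch, used mainly by neutrophils, macrophages and mast cells. The lung is known as a major site at which circulating prostaglandins are taken up and inactivated.

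The 6 libraries held 16731850 to 21444907 counts. Fto itself checked the labels: it stood at 666.1, 650.1 and 740.8 CPM (read counts scaled by TMM-adjusted library size) in FTO-overexpressing lungs, against 66.2, 69.9 and 68.6 CPM in wild-type lungs. Markers of the lung were present in both groups; Sftpc, the surfactant protein C gene of alveolar type 2 cells, averaged 12638.5 ± 1375.7 CPM in FTO-overexpressing and 13841.8 ± 1228.6 CPM in wild-type lungs (SD, n = 3 each). Heart muscle markers varied most between libraries: the summed level of 6 of them ran from 180.8 to 1208.2 CPM in FTO-overexpressing lungs, highest in replicate 2, and from 68.0 to 573.0 CPM in wild-type lungs, highest in replicate 3.

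Of the 9 members with enough counts to be tested, 0 passed an edgeR adjusted p of 0.05, a threshold that 16 of the 16989 genes tested passed (0.0942%; 0.0765% as higher and 0.0177% as lower). By limma-voom 0 members passed as well, while DESeq2, which called 2.32% of its genes, and edgeR without a filter on low counts, which called 0.972%, each called 2. A pair of members stood apart from the other 7. The ratio of FTO-overexpressing to wild-type level was 0.5 for Ptgs2, the COX-2 gene, and 1.77 for Ptger4, a prostaglandin E2 receptor gene. These were also the members, 2 of 9, with an unadjusted edgeR p under 0.05, against 9.44% of all genes tested (5.77% higher and 3.67% lower), and the 2 of 9 whose groups did not overlap, against 14.8% of all genes (7.94% with every FTO-overexpressing library above, 6.9% with every one below). The median log2 fold change was -0.15 over the 9 members and 0.00695 over all genes tested; 6 members lay below 0 and 3 above.

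**Figure D1:**
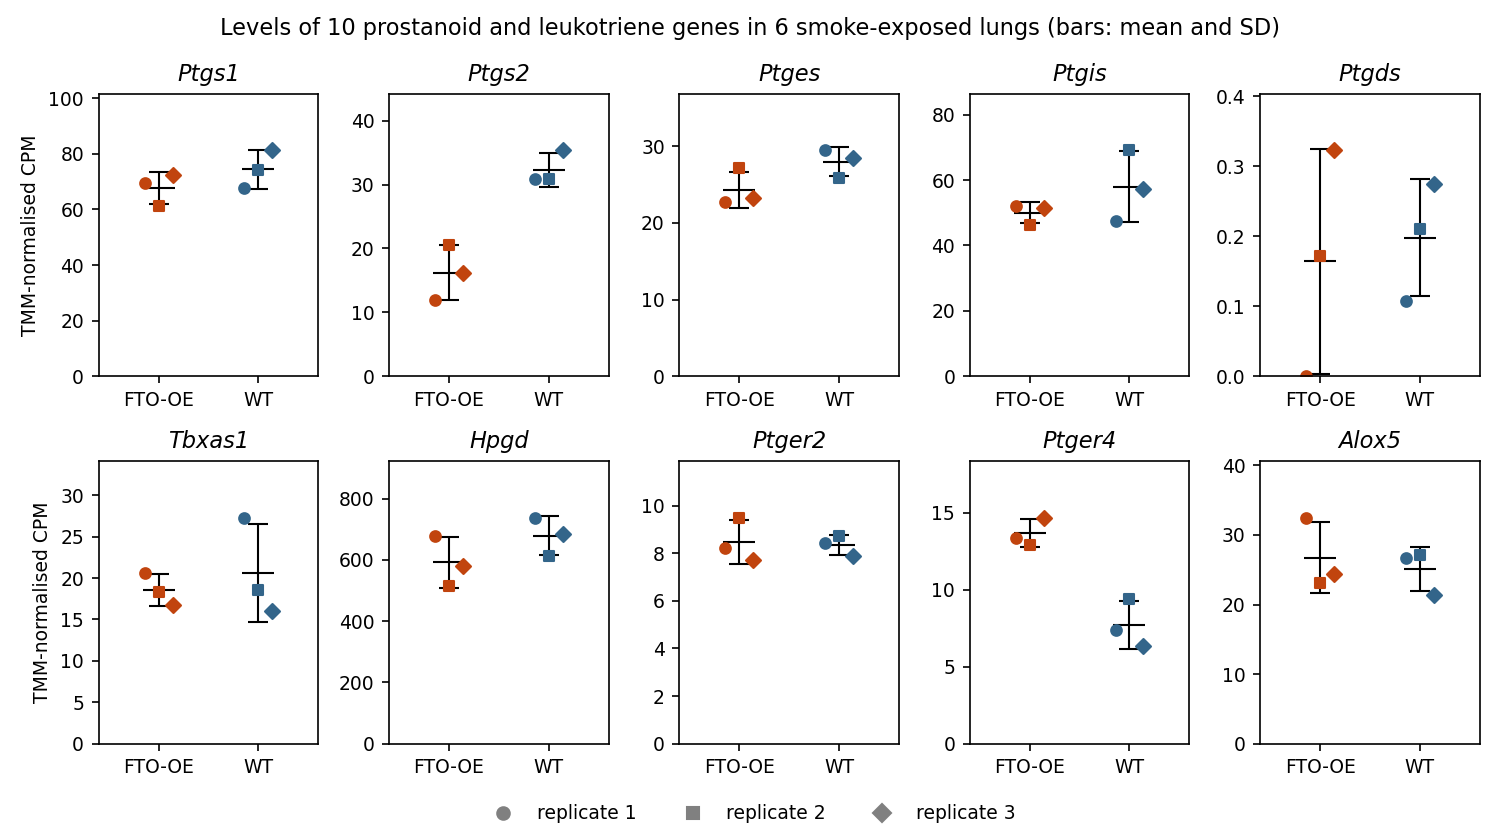
Level of each of the 10 genes in each library, in TMM-normalised CPM on linear axes from 0, for FTO-overexpressing (FTO-OE, left) and wild-type (WT, right) lungs; symbols give the replicate, and bars the mean and SD of 3 libraries. The groups separate for Ptgs2, at 11.9 to 20.5 against 30.8 to 35.4 CPM, and for Ptger4, at 12.9 to 14.7 against 6.33 to 9.40 CPM, and overlap for the other 8 genes.

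Ptgs2 (ENSMUSG00000032487) stood at 11.9, 20.5 and 16.1 CPM in FTO-overexpressing lungs, against 30.8, 30.9 and 35.4 CPM in wild-type lungs. Every FTO-overexpressing library lay below every wild-type library, and replicate 1 was the lowest. The means were 16.2 ± 4.29 CPM in FTO-overexpressing and 32.3 ± 2.62 CPM in wild-type lungs (SD, n = 3 each). The fitted log2 fold change was -1.0 ± 0.186 (SE), a ratio of 0.5 with a 95% interval of 0.371 to 0.675, and the edgeR adjusted p was 0.120. It ranked 109th of 16989 genes by p. DESeq2 and edgeR without a filter both put Ptgs2 past the threshold (adjusted p of 3.42e-05 and 0.00554); over all alternatives the adjusted p ran up to 0.396. In lung tissue, fewer cells that carry a transcript and less of it per cell cannot be told apart, here and for each gene below. The table holds a row for each of 2 transcripts named as antisense to Ptgs2, which were looked up after the values of Ptgs2 were seen. Ptgs2os2 stood at 4.98, 6.48 and 4.06 CPM in FTO-overexpressing lungs, against 5.85, 5.84 and 6.27 CPM in wild-type lungs, with overlapping groups and an edgeR adjusted p of 0.831. Ptgs2os had at most 6 counts in any library and was not tested.

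Ptgs1 (ENSMUSG00000047250), which encodes COX-1, did not separate the groups. It stood at 69.6, 61.3 and 72.5 CPM in FTO-overexpressing lungs, against 67.6, 74.3 and 81.4 CPM in wild-type lungs, a ratio of 0.911 with a 95% interval of 0.776 to 1.07 (edgeR adjusted p = 0.766). The share of COX-2 relative to COX-1 transcripts can be read within a library, where scaling between libraries plays no part. There were 0.172, 0.335 and 0.223 Ptgs2 counts per Ptgs1 count in FTO-overexpressing lungs, against 0.456, 0.416 and 0.435 in wild-type lungs. All 3 FTO-overexpressing ratios lay below all 3 wild-type ratios, and they differed more among themselves (SD of 0.486 on the log2 scale, against 0.0662 in wild-type lungs). The mean log2 ratio was -2.09 in FTO-overexpressing and -1.20 in wild-type lungs, a difference of -0.89. An exact two-sided permutation test gave p = 0.1, and 0.1 adjusted over the 2 ratios computed, which is the smallest p that 3 samples against 3 allow.

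**Figure D2:**
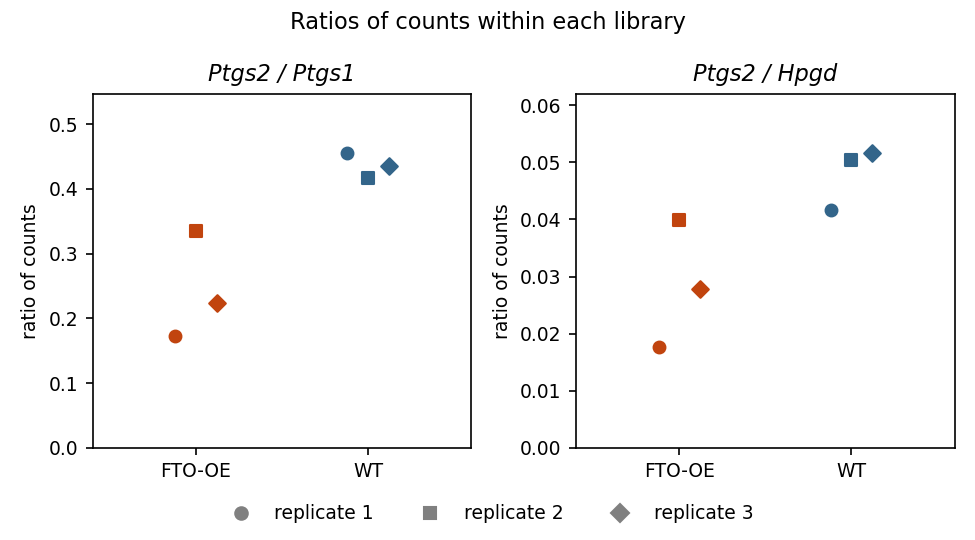
Ratio of Ptgs2 counts to Ptgs1 counts (left) and to Hpgd counts (right) within each library, on linear axes from 0, for FTO-overexpressing and wild-type lungs; each symbol is 1 library. In both panels the 3 FTO-overexpressing libraries lie below the 3 wild-type libraries, by the least for replicate 2 in the Hpgd panel (0.0399 against a lowest wild-type value of 0.0417).

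The promoters of the pair of members whose groups did not overlap are shown for the motifs in them. Of the 10 members, 9 matched the RefSeq promoter table (build GRCm38.p6), which gives 250 bases before and 50 after each annotated start site. The 250 bases before the start site lie at chr1:150099781-150100030 (plus strand) for Ptgs2 and at chr15:5244188-5244437 (minus strand) for Ptger4. Capitals mark matches on either strand to any of 7 motifs: TATAAA (the TATA box), CCAAT (the CCAAT box), CACGTG (an E-box), CGTCA (the core of a cyclic AMP response element), TTGCGCAA (a palindrome bound by C/EBP factors), TGANTCA (AP-1) and the NF-kB site of the immunoglobulin kappa enhancer. No source used here names the genome build behind the authors' table, and the positions belong to the RefSeq table alone. The motifs were listed with these windows in view.
Ptgs2: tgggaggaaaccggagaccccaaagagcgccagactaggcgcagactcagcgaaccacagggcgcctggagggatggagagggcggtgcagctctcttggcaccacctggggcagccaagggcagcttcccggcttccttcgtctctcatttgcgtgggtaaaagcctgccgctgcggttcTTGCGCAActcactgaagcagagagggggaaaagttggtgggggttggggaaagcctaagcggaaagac
Ptger4: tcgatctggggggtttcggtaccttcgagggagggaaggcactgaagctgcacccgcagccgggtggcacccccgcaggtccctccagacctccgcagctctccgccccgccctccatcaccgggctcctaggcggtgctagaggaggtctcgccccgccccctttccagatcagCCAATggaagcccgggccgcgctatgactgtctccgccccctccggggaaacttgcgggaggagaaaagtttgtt
In Ptgs2 the palindrome TTGCGCAA spans bases 69 to 62 before the start site. It occurs in 60 of all 32851 windows of 300 bases in the table (0.183%) and in none of the 8 other members with a window. Just after the start site, in taCGTCACGTGgagt, the Ptgs2 window holds CGTCA at bases 14 to 18 and CACGTG at bases 17 to 22, which overlap by their shared bases. These motifs occur in 20.8% and 7.15% of all windows and likewise in none of those 8. In Ptger4 a CCAAT box spans bases 75 to 71 before the start site; 37.4% of all windows hold one, and so does that of Ptger2. TATAAA was found for Hpgd, at bases 5 to 10 after the start site, and for Tbxas1, within bases 13 to 6 before it (13.6% of all windows). TGANTCA was found for Ptgds and Tbxas1 (7.81%). The NF-kB site, in 0.155% of windows, was found in 0 of the 9 members. These are matches of letters only, placed by the annotated start sites. Where transcription starts in these lungs was not measured.

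Of the 4 terminal synthase genes, the 3 tested (Ptges, Ptgis and Tbxas1) had ratios under 1 with intervals that included 1. Ptges (ENSMUSG00000050737), which encodes the inducible synthase of prostaglandin E2 that works downstream of COX-2, stood at 22.7, 27.1 and 23.2 CPM in FTO-overexpressing lungs, against 29.5, 25.9 and 28.5 CPM in wild-type lungs. FTO-overexpressing replicate 2 lay above the lowest wild-type library, so the groups overlapped. The ratio was 0.869 (95% interval 0.736 to 1.03; edgeR adjusted p = 0.620). Ptgis (ENSMUSG00000017969), the gene of the prostacyclin synthase of endothelium and smooth muscle, stood at 52.1, 46.2 and 51.6 CPM in FTO-overexpressing lungs, against 47.5, 69.2 and 57.2 CPM in wild-type lungs. Wild-type replicate 2 was the highest library, and the ratio of 0.863 had a 95% interval of 0.693 to 1.07 (edgeR adjusted p = 0.713). The summed level of 7 smooth muscle and pericyte markers was 634.3, 999.8 and 692.5 CPM in FTO-overexpressing lungs, against 718.0, 856.8 and 790.5 CPM in wild-type lungs. This sum was highest in FTO-overexpressing replicate 2, where Ptgis was lowest. That of 7 endothelial markers was 2958.2, 2666.0 and 2658.4 CPM in FTO-overexpressing lungs, against 2928.7, 3113.1 and 3082.8 CPM in wild-type lungs, highest in wild-type replicate 2 as for Ptgis. Those of 6 fibroblast and of 6 mesothelial markers were also highest in that library, at 2273.8 and 188.5 CPM, and did not exceed 1758.7 and 106.2 CPM in FTO-overexpressing lungs. The part of these cells in the Ptgis level was not tested.

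Tbxas1 (ENSMUSG00000029925), the gene of the thromboxane synthase of platelets and macrophages, stood at 20.6, 18.3 and 16.7 CPM in FTO-overexpressing lungs, against 27.3, 18.5 and 16.0 CPM in wild-type lungs. It was highest in replicate 1 of each group, and its within-group spread (SD of 0.298 on the log2 CPM scale) was the widest of the 9 members tested. Its ratio was 0.899 (95% interval 0.653 to 1.24; edgeR adjusted p = 0.881), and the log2 fold change of -0.15 was 0.11 without wild-type replicate 1. The summed level of 7 alveolar macrophage markers, mostly Chil3, was also highest in replicate 1 of each group. This sum ran from 1425.4 to 2300.3 CPM in FTO-overexpressing lungs and from 2085.9 to 2945.0 CPM in wild-type lungs. That of 8 platelet markers ran from 115.2 to 206.6 CPM in FTO-overexpressing and from 133.0 to 175.1 CPM in wild-type lungs. No marker of either list was at 0 in all libraries, and the part of either cell type in the Tbxas1 level was not tested. In the GENCODE vM21 annotation Tbxas1 overlaps Hipk2 on the other strand; whether the counting used strand is not given in the sources used here.

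Ptgds (ENSMUSG00000015090), which encodes a prostaglandin D2 synthase known from brain and other tissues, was close to the limit of detection. It had 0, 3 and 7 counts in FTO-overexpressing libraries, against 2, 4 and 5 in wild-type libraries, and was left out by the filter on low counts. The library without a count allows a level of up to 0.152 CPM (3 counts, on the same TMM-normalised scale), a limit that covers counting error only. A difference in Ptgds was not detectable at this depth. Hpgds, the gene of the other, haematopoietic prostaglandin D2 synthase, was tested and stood at 5.79, 6.48 and 4.93 CPM in FTO-overexpressing lungs, against 6.18, 5.04 and 3.80 CPM in wild-type lungs, with overlapping groups.

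Hpgd (ENSMUSG00000031613), which encodes the dehydrogenase that inactivates prostaglandins, stood at 678.0, 515.2 and 580.6 CPM in FTO-overexpressing lungs, against 738.0, 613.3 and 685.0 CPM in wild-type lungs. The groups overlapped, and the ratio was 0.871 (95% interval 0.710 to 1.07; edgeR adjusted p = 0.713). Set against it within a library, Ptgs2 gave 0.0176, 0.0399 and 0.0278 counts per Hpgd count in FTO-overexpressing lungs, against 0.0417, 0.0504 and 0.0517 in wild-type lungs. The mean log2 ratio was -5.21 in FTO-overexpressing and -4.39 in wild-type lungs, a difference of -0.82, with an exact two-sided permutation p of 0.1, again the smallest possible.

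Per length of annotated exons the order of the genes could be compared. This length joins the exons of all annotated transcripts of a gene, so it can exceed that of any single transcript. It ran from 1649 bases for Ptgds to 9094 bases for Tbxas1. CPM was divided by the length in kilobases of all annotated exons in GENCODE vM21, whose gene identifiers cover 90.8% of the rows, so the values depend on that annotation. Hpgd was the highest member, at 351.3 ± 48.7 CPM per kb in FTO-overexpressing and 403.3 ± 37.2 CPM per kb in wild-type lungs (SD, n = 3 each). Ptgis and Ptgs1 followed, at 19.5 ± 1.27 and 17.5 ± 1.5 CPM per kb in FTO-overexpressing lungs, against 22.6 ± 4.24 and 19.2 ± 1.77 CPM per kb in wild-type lungs, and did not differ from each other beyond their ranges in either group. Ptgs2 stood at 3.54 ± 0.937 CPM per kb in FTO-overexpressing lungs, below the ranges of both Alox5 (6.50 ± 1.24) and Ptges (6.19 ± 0.604). In wild-type lungs it stood at 7.06 ± 0.572 CPM per kb, within the range of Ptges (7.13 ± 0.471) and above that of Alox5 (6.10 ± 0.784). The order of the receptor genes differed between the groups: Ptger4 was above Ptger2 in FTO-overexpressing lungs (2.05 ± 0.136 and 1.63 ± 0.178 CPM per kb) and below it in wild-type lungs (1.16 ± 0.235 and 1.61 ± 0.0841 CPM per kb). Tbxas1, at 2.04 ± 0.213 CPM per kb in FTO-overexpressing lungs, did not differ from Ptger4 there beyond their ranges. Ptgds was last in both groups.

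Prostaglandin E2 acts through receptors of which EP2 and EP4, encoded by Ptger2 and Ptger4, both raise cyclic AMP in the cell. Ptger4 (ENSMUSG00000039942) stood at 13.4, 12.9 and 14.7 CPM in FTO-overexpressing lungs, against 7.37, 9.40 and 6.33 CPM in wild-type lungs. All FTO-overexpressing libraries lay above all wild-type libraries. The means were 13.7 ± 0.906 CPM in FTO-overexpressing and 7.70 ± 1.56 CPM in wild-type lungs (SD, n = 3 each). The fitted log2 fold change was 0.82 ± 0.171 (SE), 1.77-fold with a 95% interval of 1.34 to 2.33, and the edgeR adjusted p was 0.149. DESeq2 and edgeR without a filter put it past the threshold (adjusted p of 0.00555 and 0.0411), and over all alternatives the adjusted p ran up to 0.468. In GENCODE vM21 Ttc33 overlaps Ptger4 on the other strand; its log2 fold change was 0.05 ± 0.101 (SE), with an edgeR adjusted p of 0.932.

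Ptger2 (ENSMUSG00000037759) did not separate the groups, at 8.23, 9.50 and 7.70 CPM in FTO-overexpressing lungs, against 8.45, 8.72 and 7.87 CPM in wild-type lungs. The ratio was 1.01 with a 95% interval of 0.802 to 1.28 (edgeR adjusted p = 0.984). Its log2 fold change of 0.02 was -0.07 without FTO-overexpressing replicate 2 and -0.02 without wild-type replicate 3. Whether the differences of the 2 receptor genes themselves differed was not tested.

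Markers of T cells, which carry EP4, and most of the monocyte markers stood higher beside Ptger4. Of 9 T cell markers, 9 were higher in every FTO-overexpressing library than in any wild-type library, against 7.94% of all genes tested, and 3 (Cd8a, Cd8b1 and Lck) passed the edgeR adjusted p of 0.05. Their summed level was 282.4, 365.4 and 566.6 CPM in FTO-overexpressing lungs, against 125.4, 112.9 and 91.4 CPM in wild-type lungs. The T cell sum and Ptger4 were both highest in FTO-overexpressing replicate 3. Ptger4 differed little between FTO-overexpressing replicates 1 and 2, at 13.4 and 12.9 CPM. In wild-type lungs the sum was highest in replicate 1 and Ptger4 in replicate 2. The order of 3 libraries is too short to relate the sum to Ptger4. Of 5 monocyte markers, 3 (Ly6c2, Ccr2 and Cx3cr1) were higher in every FTO-overexpressing library. Csf1r and Fcgr4 overlapped, with log2 fold changes of -0.04 and 0.34. The summed level of all 5 ran from 468.9 to 585.7 CPM in FTO-overexpressing and from 255.7 to 475.4 CPM in wild-type lungs, with overlap. The lists of B cells and alveolar macrophages did not stand higher. The 5 B cell markers all overlapped, with a median log2 fold change of 0.03. Their summed level ran from 80.7 to 89.5 CPM in FTO-overexpressing and from 47.4 to 124.5 CPM in wild-type lungs. All 7 alveolar macrophage markers had log2 fold changes below 0 (median -0.27). No marker of these lists was at 0 in all libraries. The part of these cells in the Ptger4 difference was not tested.

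For Ptgs2, which epithelial cells, fibroblasts, endothelium and macrophages can all make, the marker lists of resident cells were read in the same way. The 7 alveolar macrophage markers all had log2 fold changes below 0, with a median of -0.27, but Car4 alone did not overlap. Their summed level, mostly Chil3, was 2300.3, 1425.4 and 1589.9 CPM in FTO-overexpressing lungs, against 2945.0, 2085.9 and 2120.2 CPM in wild-type lungs. Among FTO-overexpressing lungs this sum was highest in replicate 1, where Ptgs2 was lowest. The summed level of 6 alveolar type 1 markers ran from 2932.2 to 3361.4 CPM in FTO-overexpressing and from 3518.6 to 3983.5 CPM in wild-type lungs, and 3 of the 6 (Rtkn2, Emp2 and Aqp5) were lower in every FTO-overexpressing library than in any wild-type library, against 6.9% of all genes tested. That of 7 alveolar type 2 markers ran from 18074.6 to 21751.5 CPM in FTO-overexpressing and from 20959.0 to 23910.7 CPM in wild-type lungs, and 6 of the 7, all but Sftpc, were lower in every FTO-overexpressing library. For 6 fibroblast markers it ran from 1561.4 to 1758.7 CPM in FTO-overexpressing and from 1646.0 to 2273.8 CPM in wild-type lungs. Pdgfra and Inmt were lower in every FTO-overexpressing library, while the other 4 overlapped. Of those, Dcn lay above 0 (log2 fold change 0.20), and Col1a1 and Col1a2 were at -0.15 and -0.11. For 7 endothelial markers the ranges were 2658.4 to 2958.2 CPM in FTO-overexpressing and 2928.7 to 3113.1 CPM in wild-type lungs, with Egfl7 alone free of overlap. The 5 mesothelial markers tested had a median log2 fold change of -1.11, with overlap in each, and the summed level of all 6 was 106.2, 86.7 and 82.6 CPM in FTO-overexpressing lungs, against 95.7, 188.5 and 136.9 CPM in wild-type lungs. For this sum wild-type replicate 1 lay within the range of the FTO-overexpressing libraries. The sum of 5 airway epithelium markers, mostly Scgb1a1, ran from 21158.8 to 27571.9 CPM in FTO-overexpressing and from 26273.9 to 33452.2 CPM in wild-type lungs; 3 of the 5 lay below 0, and Muc5b was higher in every FTO-overexpressing library. The 7 smooth muscle and pericyte markers all overlapped, with a median log2 fold change of -0.09 and 3 of them above 0. Their summed level averaged 775.5 CPM in FTO-overexpressing and 788.4 CPM in wild-type lungs. Markers set beside other members went the other way: 6 of 6 neutrophil and 4 of 5 monocyte markers lay above 0 (medians 0.32 and 0.84). None of these markers was at 0 in all libraries, and the smallest edgeR adjusted p among them was 0.155, for Egfl7. Their part in the Ptgs2 difference was not tested.

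The genes whose pattern over the 6 libraries was closest to that of Ptgs2 were Eda, Hhip and Aspn. Likeness was the root mean square difference of log2 CPM after each gene was centred on its own mean, over 13508 genes with an average log2 CPM of at least 1; it was 0.196 for Eda, 0.211 for Hhip and 0.216 for Aspn, beside a spread of 0.563 for Ptgs2 itself. Eda, which encodes ectodysplasin A, a signal of the tumour necrosis factor family, stood at 1.98, 3.07 and 2.81 CPM in FTO-overexpressing lungs, against 3.79, 4.15 and 4.51 CPM in wild-type lungs. Hhip, which encodes an inhibitor that binds hedgehog ligands, stood at 25.8, 34.9 and 28.7 CPM in FTO-overexpressing lungs, against 44.8, 55.4 and 48.8 CPM in wild-type lungs. Aspn, the gene of the matrix protein asporin, stood at 21.0, 24.6 and 18.1 CPM in FTO-overexpressing lungs, against 39.6, 37.7 and 41.1 CPM in wild-type lungs. None of the 3 passed the threshold (edgeR adjusted p of 0.415, 0.111 and 0.0702).

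In the leukotriene branch Alox5 (ENSMUSG00000025701) stood at 32.5, 23.1 and 24.4 CPM in FTO-overexpressing lungs, against 26.7, 27.1 and 21.3 CPM in wild-type lungs. FTO-overexpressing replicate 1 was the highest library, and the groups overlapped. The ratio was 1.07 (95% interval 0.827 to 1.37; edgeR adjusted p = 0.919), and the log2 fold change of 0.09 was -0.08 without FTO-overexpressing replicate 1 and -0.01 without wild-type replicate 3. Alox5ap, which encodes the membrane protein that hands arachidonic acid to 5-lipoxygenase, stood at 92.7, 62.2 and 93.6 CPM in FTO-overexpressing lungs, against 94.7, 77.5 and 67.3 CPM in wild-type lungs, with overlapping groups. The summed level of 6 neutrophil markers ran from 915.6 to 2020.3 CPM in FTO-overexpressing and from 1107.9 to 1572.6 CPM in wild-type lungs. Like Alox5 and Alox5ap, it was lowest among FTO-overexpressing lungs in replicate 2; that of 7 alveolar macrophage markers, given above, was lowest there too. The summed level of 7 mast cell markers ran from 206.4 to 232.6 CPM in FTO-overexpressing and from 196.9 to 204.7 CPM in wild-type lungs. These ranges did not overlap, by a narrow margin. The sum was mostly Kit, which itself overlapped, at 200.6 CPM in FTO-overexpressing replicate 1 and 202.8 CPM in wild-type replicate 3. No other mast cell marker exceeded 2.54 CPM in any library (Ms4a2, FTO-overexpressing replicate 3). The sum therefore follows Kit and is not a measure of the other mast cell markers. Of the 6 mast cell markers tested, 5 had log2 fold changes above 0 (median 0.755). In every FTO-overexpressing library 3 were higher (Cpa3, Cma1 and Fcer1a, each at no more than 2.10 CPM in any library), against 7.94% of all genes tested. No marker of these 3 lists was at 0 in all libraries, and the part of these cells in the Alox5 level was not tested.

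**Figure D3:**
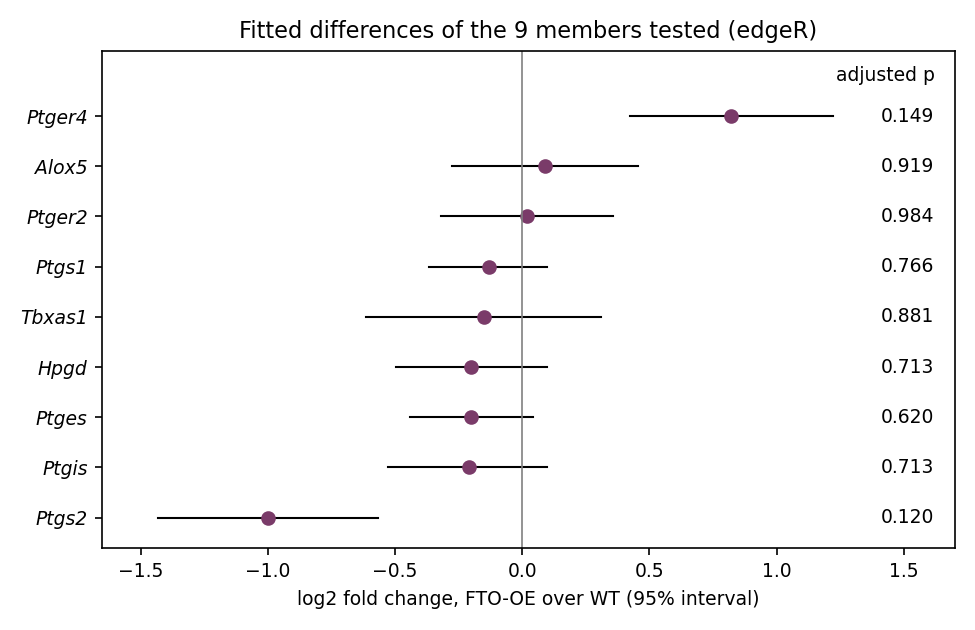
Fitted log2 fold change of the 9 members tested, FTO-overexpressing over wild-type, with 95% intervals and edgeR adjusted p-values at the right. The intervals of Ptgs2 (-1.0) and Ptger4 (0.82) leave out 0, those of the other 7 members include it, and all 9 adjusted p-values are at least 0.120.

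The other genes of these pathways were read from 7 lists with 52 entries, of which 51 were found as a single row and 41 had enough counts to be tested. Dpep2 had 2 rows and was left out. Of the 41, 0 passed the edgeR adjusted p of 0.05 in either direction, 2 had an unadjusted p under 0.05 (both lower, against 9.44% of all genes tested and 3.67% as lower), and the median log2 fold change was -0.02. By DESeq2, and by edgeR without a filter, 0 of them passed as well. In 3 of the 41 every FTO-overexpressing library lay below every wild-type library, against 6.9% of all genes tested. The smallest adjusted p was 0.524. Of the 9 genes of arachidonate release and recycling tested, 8 lay below 0, with a median of -0.09; over all genes tested 51.5% lay above 0. Mgll, the gene of a lipase that frees arachidonic acid from the endocannabinoid 2-arachidonoylglycerol, stood at 107.2, 91.9 and 94.3 CPM in FTO-overexpressing lungs, against 113.4, 107.4 and 116.9 CPM in wild-type lungs. Its groups did not overlap, by a narrow margin (log2 fold change -0.20 ± 0.0857, SE). Acsl4 encodes a ligase that returns arachidonic acid to membrane lipids and had a log2 fold change of -0.15 ± 0.0820 (SE), also without overlap.

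Among 9 genes of leukotriene synthesis and breakdown tested, 5 lay above and 4 below 0. Dpep1, the gene of a dipeptidase that converts leukotriene D4 to E4, stood at 81.8, 87.6 and 88.9 CPM in FTO-overexpressing lungs, against 84.2, 115.9 and 126.2 CPM in wild-type lungs, with overlap (log2 fold change -0.34 ± 0.145, SE). Ggt5, the gene of a glutamyl transferase that converts leukotriene C4 to D4, was the remaining one of the 3 without overlap (log2 fold change -0.25). The 4 leukotriene and lipoxin receptor genes tested had a median log2 fold change of 0.28. Fpr2, which encodes a formyl peptide and lipoxin receptor of neutrophils and macrophages, stood at 24.7, 16.4 and 24.3 CPM in FTO-overexpressing lungs, against 20.1, 16.2 and 12.9 CPM in wild-type lungs, with overlap. The 3 lipoxygenase genes tested besides Alox5 had log2 fold changes below 0, all with overlap. Alox12, the platelet-type 12-lipoxygenase gene and the most abundant of them, stood at 24.2, 20.6 and 33.6 CPM in FTO-overexpressing lungs, against 33.6, 23.4 and 25.4 CPM in wild-type lungs (log2 fold change -0.07 ± 0.205, SE). Alox15, a 12/15-lipoxygenase gene of mouse macrophages, stood at 2.95, 3.64 and 1.52 CPM in FTO-overexpressing lungs, against 0.704, 6.93 and 4.73 CPM in wild-type lungs (log2 fold change -0.62 ± 0.690, SE), and its wild-type libraries enclosed all 3 others. Aloxe3, a lipoxygenase gene best known from skin, stood at 0.813, 1.42 and 0.876 CPM in FTO-overexpressing lungs, against 1.79, 1.37 and 1.65 CPM in wild-type lungs, with overlap.

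The fitted log2 fold changes of prostanoid genes outside the members lay close to 0, but some receptor genes had wide intervals. The 95% interval of the ratio was 0.622 to 1.66 for Ptger1 and 0.666 to 1.9 for Ptger3. The log2 fold changes of the 6 other synthase genes tested lay between -0.13 and 0.19, those of the 5 genes of breakdown and transport between -0.13 and 0.06, and those of the 5 other receptor genes tested between -0.13 and 0.17. Ptges3, which encodes a cytosolic prostaglandin E synthase that also serves as an HSP90 co-chaperone, had a log2 fold change of -0.12 ± 0.107 (SE). The value was -0.13 ± 0.109 (SE) for Ptgr1, a prostaglandin reductase gene, and -0.13 ± 0.181 (SE) for Ptgir, the prostacyclin receptor gene, where it was 0.06 without wild-type replicate 1. The groups of all 16 overlapped.

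**Figure D4:**
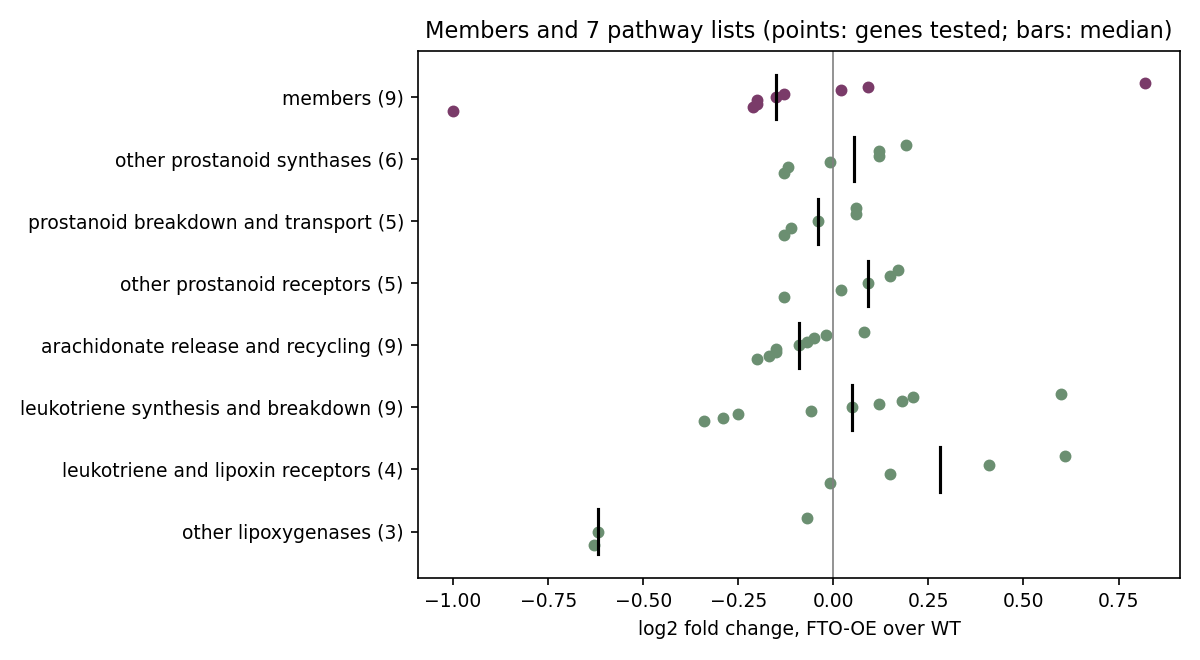
Log2 fold change, FTO-overexpressing over wild-type, of the members and of the genes tested in 7 pathway lists (number of genes in brackets); each point is a gene and each black bar the median of its list. Ptgs2 at -1.0 and Ptger4 at 0.82 are the outermost points, beyond the range of -0.63 to 0.61 of the 41 other pathway genes.

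**Figure D5:**
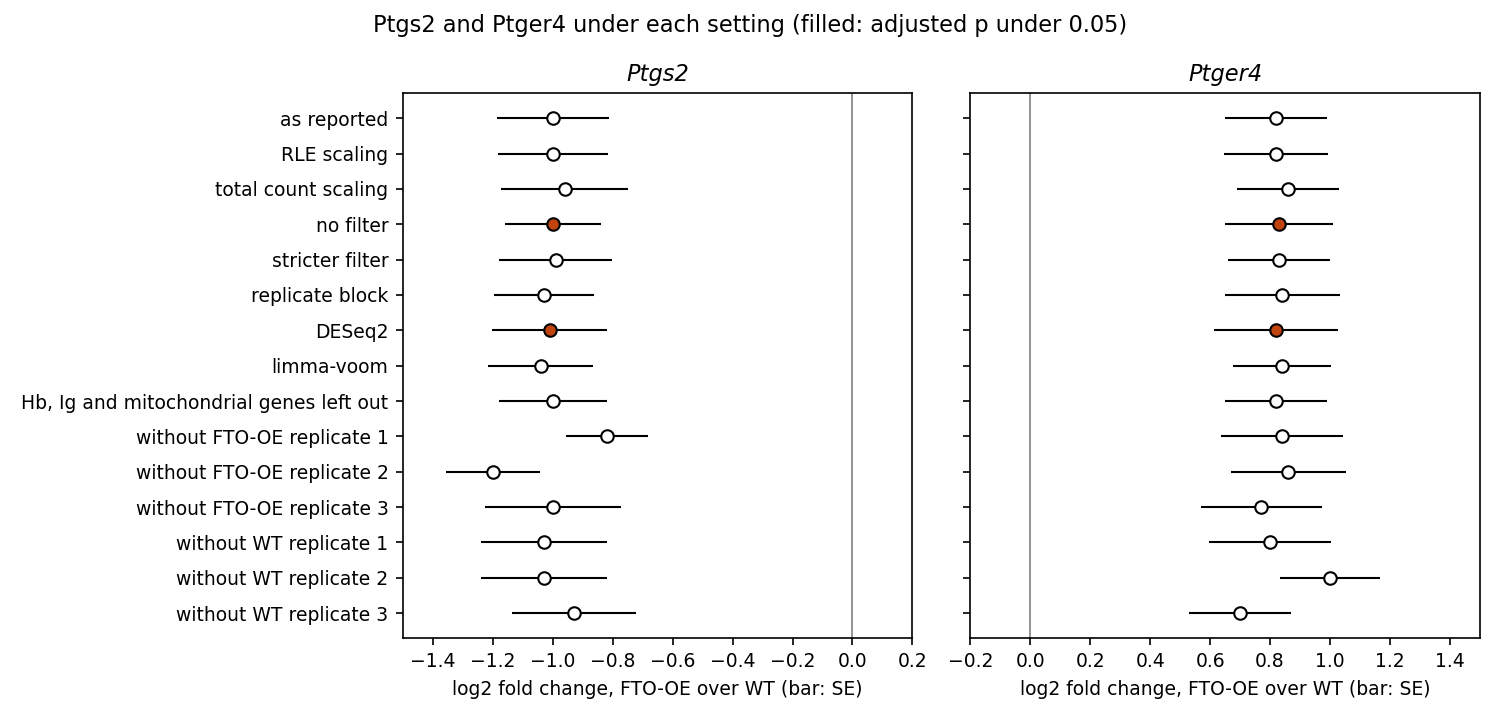
Log2 fold change of Ptgs2 (left) and Ptger4 (right), FTO-overexpressing over wild-type, as reported and under 14 alternative settings; bars are the SE, and filled points have an adjusted p under 0.05. Ptgs2 runs from -1.20 to -0.82 and Ptger4 from 0.70 to 1.00, and the filled points are those of DESeq2 and of edgeR without a filter.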

How the data were processed

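TRIzol was used to extract RNA and the Illumina Stranded mRNA kit to build libraries, per the labels' protocols. The submitters' processing notes name fastp, HISAT2 and StringTie, without versions; no source used here names the build, annotation or counting program. The authors deposited expected counts per gene, that is estimated counts not scaled to library size; 9.66% to 10.3% of rows per library were not whole. 525 rows with an identifier but no symbol held 0.119% to 0.143% of the counts and were kept.

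Columns were matched to samples by the column name in the labels, and groups taken from the labels. Values were rounded for the count tests. In R 4.3.3, edgeR 4.0.16 was run with filterByExpr, TMM scaling and the quasi-likelihood test on genotype; p-values were adjusted by Benjamini-Hochberg over all 16989 genes tested. Levels are TMM-normalised CPM. SE and intervals follow from the fold change and its F statistic. Ratios within a library used counts plus 0.5. The alternatives were RLE and total count scaling, no filter and a mean of at least 50 counts, a replicate block, each library left out, DESeq2 1.42.0, limma-voom (limma 3.58.1), the removal of globin, immunoglobulin and mitochondrial genes, and no 0.5 in the ratios. The fits were tested on simulated data. No 2 libraries of a group were duplicates: their counts gave a chi-square per degree of freedom of 25.9 to 44.8.

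The members and lists were chosen with earlier results of these data known. Named genes were the members, Fto and the 3 genes most like Ptgs2. Each pathway list added up to 3 genes with an unadjusted edgeR p under 0.05, or else the gene with the smallest p. Hpgds, Alox5ap, Alox12, Alox15, Ptger1, Ptger3, Acsl4, Ggt5, single markers and the antisense and overlapping genes were chosen after their values were seen. Akr1b3 was matched by gene identifier. The labels name no molecular identifiers, so counts may not be independent molecules.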

Additional observations from a re-analysis of the deposited data

How the results depend on the processing

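The fold changes of Ptgs1, Ptgs2, Ptges, Ptgis, Hpgd and Ptger4 kept their direction in each of 14 alternatives. The count of members past the threshold was 0 in 12 of them and 2 (Ptgs2 and Ptger4) with DESeq2 and with no filter; the cause was not tested. It was 0 for the 41 pathway genes in all 14. Over all genes the 16 calls became 287 with no filter, 420 with DESeq2, 5 with limma-voom, 31 on removal of globin, immunoglobulin and mitochondrial genes and 2 with a replicate block, and 1 to 49 without 1 library: 1 without FTO-overexpressing replicate 2, wild-type replicate 2 or wild-type replicate 3, 6 without FTO-overexpressing replicate 3 and 49 without FTO-overexpressing replicate 1. Without 1 library the log2 fold change ran from -1.20 to -0.82 for Ptgs2 and from 0.70 to 1.00 for Ptger4, and it changed sign for Tbxas1 (-0.31 to 0.11), Ptger2 (-0.07 to 0.08), Alox5 (-0.08 to 0.18) and Ptgir (-0.23 to 0.06). The difference in the log2 ratio of Ptgs2 to Ptgs1 ran from -1.15 to -0.67 and that of Ptgs2 to Hpgd from -1.11 to -0.52; without the 0.5 they were -0.90 and -0.83. Aloxe3 had too few counts for the stricter filter. Among the genes most like Ptgs2, Hhip and Aspn passed the threshold with DESeq2 and with no filter, and Aspn also on removal of the globin, immunoglobulin and mitochondrial genes. The labels do not say whether the replicate numbers pair the libraries. Deviations from the group means correlated at 0.108, -0.308 and -0.308 for numbers 1, 2 and 3. With 3 libraries per group such correlations depend on one another, so they cannot settle it. Between unlike numbers the highest correlation was 0.43, for FTO-overexpressing replicate 2 with wild-type replicate 3. The chi-square per degree of freedom was 19.2 to 43.0 between groups and 25.9 to 44.8 within them, so some libraries were closest to one of the other group. The lowest value, 19.2, joined replicate 1 of both groups, while numbers 2 and 3 gave 36.8 and 38.3. A pairing other than by number was not fitted. With the replicate block Ptgs2 was at -1.03 (edgeR adjusted p = 0.223) and Ptger4 at 0.84 (edgeR adjusted p = 0.327), 0 members passed, and the paired exact permutation p of both ratios was 0.25, the smallest 3 pairs allow. Depth limits Ptgds, at no more than 7 counts per library.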
